A study of Rattus norvegicus with 2 samples.

Results

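The genes of antigen presentation by major histocompatibility complex (MHC) class I and class II molecules were followed through 2 two-colour arrays that compared HIP rats with wild-type rats. They were 9 genes, RT1-A2, B2m, Tap1, Tap2, RT1-Da, RT1-Ba, RT1-Bb, Cd74 and Ciita. Members were all non-control spots whose gene name on the array was one of these symbols or the older symbol C2ta for Ciita. This gave 9 of the 35535 gene names on the array, with 16 probes on 25 spots, of 41012 gene probes on 43379 gene spots. HIP rats are transgenic for human IAPP, a beta cell hormone that can form amyloid, and the wild-type rats were nondiabetic. The sources used here state neither the transgene's promoter nor the rats' age or tissue, and the material is labelled only as cell samples. On both arrays the wild-type channel was Cy3 and the HIP channel Cy5, and no dye swap was used, so dye and genotype cannot be told apart. The extracts are called wild type 1 and HIP 1 (array 1) and wild type 2 and HIP 2 (array 2) here, and n = 2 ratios throughout. The labels do not state whether the extracts are from separate rats, so a p-value here covers the spread between these extracts alone, which may be technical.

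Class I molecules display peptides from inside the cell to cytotoxic T cells. RT1-A2 encodes a classical class I heavy chain of the rat, B2m the light chain it pairs with, and Tap1 and Tap2 the transporter that carries peptides into the endoplasmic reticulum. Class II molecules display peptides from the endocytic route to helper T cells and are found mainly on professional antigen-presenting cells such as dendritic cells, B cells and activated macrophages. RT1-Ba and RT1-Bb encode the chains of 1 class II molecule, and RT1-Da an alpha chain of another. Cd74, the invariant chain, holds the class II groove until a peptide is loaded, and Ciita encodes the transactivator that switches class II genes on. Ciita acts with factors that bind a promoter module of X and Y boxes, which class I and B2m promoters also carry.

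The promoters are shown because class I and class II promoters can hold boxes of the X and Y module. Of the 9 genes, 8 matched the RefSeq promoter table (build GRCr8), and the 250 bases before the start are printed for the class II chains and for RT1-A2 and B2m, 5′ to 3′. Motifs were searched on both strands, and capitals mark 3 of the 4 searched, the last being not reported here: CCAAT (the Y box core), TGACG (the core shared by the X2 box and cAMP-response elements) and the core of an interferon-stimulated response element (GAAA, any 2 bases, GAAA). Matches on the other strand read ATTGG and CGTCA.
RT1-Da (chr20:4515165-4515414, plus strand): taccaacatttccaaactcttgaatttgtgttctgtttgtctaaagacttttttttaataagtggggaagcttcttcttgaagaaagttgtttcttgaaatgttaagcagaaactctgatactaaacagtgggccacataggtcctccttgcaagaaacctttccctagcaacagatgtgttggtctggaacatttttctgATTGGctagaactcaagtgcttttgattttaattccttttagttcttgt
RT1-Ba (chr20:4576807-4577056, plus strand): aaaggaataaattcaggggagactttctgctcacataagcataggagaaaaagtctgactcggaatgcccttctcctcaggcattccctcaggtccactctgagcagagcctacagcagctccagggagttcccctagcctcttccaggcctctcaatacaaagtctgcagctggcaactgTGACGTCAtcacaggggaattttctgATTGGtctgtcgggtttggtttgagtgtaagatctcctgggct
RT1-Bb (chr20:4604119-4604368, minus strand): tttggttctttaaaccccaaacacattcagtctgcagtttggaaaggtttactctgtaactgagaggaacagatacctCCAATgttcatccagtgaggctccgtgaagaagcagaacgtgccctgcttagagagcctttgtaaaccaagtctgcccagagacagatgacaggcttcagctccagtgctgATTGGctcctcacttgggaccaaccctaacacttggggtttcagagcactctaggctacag
RT1-A2 (chr20:4872621-4872870, plus strand): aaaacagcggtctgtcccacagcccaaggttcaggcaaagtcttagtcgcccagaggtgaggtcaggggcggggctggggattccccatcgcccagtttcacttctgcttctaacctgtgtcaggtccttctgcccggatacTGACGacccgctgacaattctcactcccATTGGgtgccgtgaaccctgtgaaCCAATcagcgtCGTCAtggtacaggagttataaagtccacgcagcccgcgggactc
B2m (chr3:129549080-129549329, plus strand): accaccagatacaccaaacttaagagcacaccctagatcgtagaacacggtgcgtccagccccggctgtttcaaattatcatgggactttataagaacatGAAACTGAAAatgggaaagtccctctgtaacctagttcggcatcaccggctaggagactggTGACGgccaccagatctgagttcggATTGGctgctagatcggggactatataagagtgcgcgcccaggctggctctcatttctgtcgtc

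CCAAT was found in 6 of the 8 promoters, against 34% of 33469 promoters of this length. Its match nearest the start began at base -49 in RT1-Da, -43 in RT1-Ba, -61 in RT1-Bb, -56 in RT1-A2 and -64 in B2m, and in Cd74 at -189. TGACG was found in 3 of 8 (18.2% of all promoters), in RT1-A2, RT1-Ba and B2m. In RT1-Ba the matches on both strands overlapped in TGACGTCA. The interferon-stimulated core was found in 3 of 8 (3.41% of all), as GAAACTGAAA in B2m, as TTTCGGTTTC, its other strand, in Tap1 and as GAAAGCGAAA in Tap2. A match describes the letters in this window and is not a measured site.

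Signal over local background was lowest in wild type 2. Gene spots had a median of 2.94 times local background there and of 5.10 to 5.26 times in the other 3 extracts, and 73.6% of gene spots were well above background against 83.5% to 85.0%. No gene spot (0) was saturated. Olfactory receptors are expressed chiefly by sensory neurons of the nose, yet 77.4% to 90.1% of their spots were well above background. This flag was therefore not read as a sign that a gene was expressed. Over the 1112 olfactory receptor probes, the middle 90% of normalized levels ran from 6.04 to 11.7 across the extracts (the lowest 5% point and the highest 95% point). The 95% point of the 153 negative control spots was 6.01 to 6.11. A normalized level is a log2 intensity after loess within arrays and quantile scaling between them, and the difference of 2 levels on an array equals its log2 ratio. All 16 member probes lay below 11.7 in at least 1 extract, so no level here was read as a sign that a gene was expressed.

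Across the 16 probes, 14 passed the filter of being well above background in 1 genotype on both arrays, and both probes of RT1-Ba did not. By limma with Benjamini-Hochberg adjustment over all 33212 probes tested, 0 of 14 member probes passed at 0.05 (percent called over all probes 0), and 0 passed an unadjusted 0.05 (3.33% of all probes). Their adjusted p-values lay between 0.931 and 0.9997. The exact sign-flip test of a single probe cannot reach a p below 0.5 with 2 ratios. Of the 14, 3 were higher in HIP on both arrays (27.3% of all probes), 5 were lower on both (23.1%) and 6 differed in sign (49.7%). A 2-fold difference in 1 direction on both arrays was found for 0 higher (2.6% of all probes) and 0 lower (2.47%), while 2 were 2-fold apart in opposite directions (5.39%). The shares of members are near those of all probes.

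**Figure D1:**
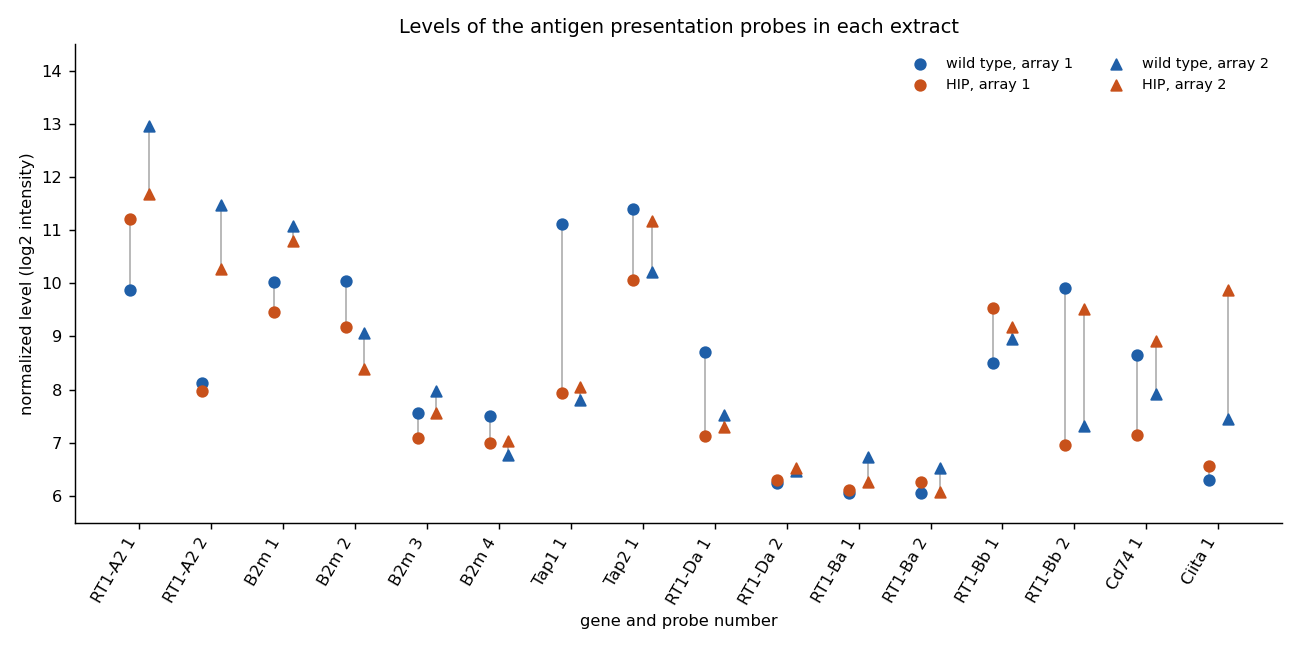
Normalized level (log2 intensity, vertical axis) of each of the 16 probes in the 4 extracts, with wild type in blue, HIP in orange, circles for array 1, triangles for array 2 and a line joining the extracts of 1 array. The RT1-A2 probes reach their highest levels in wild type 2, at 12.96 and 11.46, and Ciita stands out in HIP 2, at 9.88.

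The class I heavy chain RT1-A2 had 2 probes, and both differed most between the wild-type extracts. Probe 1 was at 9.87 in wild type 1, 11.2 in HIP 1, 12.96 in wild type 2 and 11.7 in HIP 2. HIP was thus higher on array 1 (log2 ratio 1.34) and lower on array 2 (-1.28), with a mean of 0.026 ± 1.85 (SD, n = 2 arrays). Probe 2 was at 8.12 and 7.97 on array 1 and at 11.5 and 10.3 on array 2, wild type first. Its ratios were -0.14 and -1.19, with a mean of -0.66 ± 0.74 and a 95% interval from limma of -2.35 to 1.02. The wild-type extracts were 3.10 apart on probe 1 and 3.35 apart on probe 2, a gap larger than any HIP to wild-type ratio of this gene. The HIP extracts were 0.48 and 2.31 apart on these probes. Both probes were highest in wild type 2, and the genotypes overlapped on both.

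The light chain B2m was lower in HIP on both arrays on 3 of its 4 probes, against 23.1% of all probes. Probes of 1 gene read the same extracts and are not independent measurements. Probe 1 was at 10.02 in wild type 1 and 9.46 in HIP 1, and at 11.1 in wild type 2 and 10.8 in HIP 2. Probe 2 was at 10.04 and 9.18, and at 9.06 and 8.40, in the same order. Probe 3 was at 7.56 and 7.08, and at 7.97 and 7.55, and HIP lay below wild type in both extracts there. The mean ratios of these 3 probes were -0.42 ± 0.19, -0.76 ± 0.15 and -0.44 ± 0.04 (SD, n = 2 arrays). The 95% interval of probe 2, the lowest of the 3, ran from -2.07 to 0.54. With median centring they were 0.25, -0.15 and -0.15, or 0.043, -0.35 and -0.36 relative to the median of all probes, so the sign of probe 1 changed with this choice.

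Probe 4 of B2m was printed on 10 spots, which shows the error within an array. On array 1 the spots ran from -0.65 to -0.25 with a median of -0.51, and on array 2 from 0.080 to 0.42 with a median of 0.27. The spot means were -0.50 ± 0.13 and 0.26 ± 0.10 (SD, n = 10 spots), so HIP was lower on every spot of array 1 and higher on every spot of array 2. Replicate spots share their extract and are not replicates of a genotype. The arrays were 0.76 apart for this probe, several times the spot SD. On array 2 the wild-type spots were only 1.76 times their background.

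**Figure D2:**
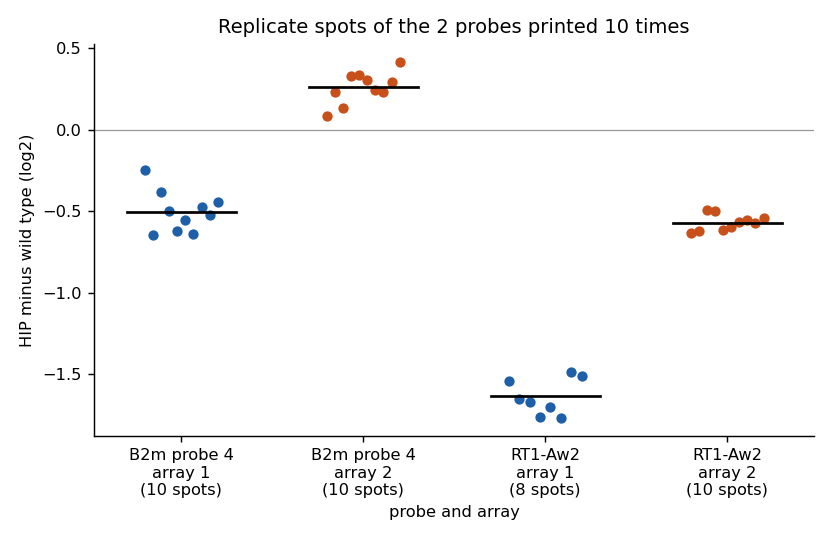
Log2 ratio of HIP over wild type (vertical axis) on each replicate spot of the 2 probes printed 10 times, by array, with black lines at the means. B2m probe 4 lies at -0.50 on array 1 and 0.26 on array 2, and RT1-Aw2, another class I probe, at -1.64 and -0.57, with spots close together on each array.

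The transporter genes Tap1 and Tap2 had 1 probe each and went opposite ways on the arrays. Tap1 was at 11.1 in wild type 1, 7.94 in HIP 1, 7.80 in wild type 2 and 8.04 in HIP 2. Wild type 1 alone was high, and the other 3 extracts lay within 0.24 of each other. The ratios were -3.18 and 0.24, with a mean of -1.47 ± 2.42 and an interval of -5.26 to 2.32. Tap2 was at 11.4 in wild type 1, 10.07 in HIP 1, 10.2 in wild type 2 and 11.2 in HIP 2. Its ratios were -1.33 and 0.96, and its mean was -0.19 ± 1.62. Both were lower in HIP on array 1 and higher on array 2.

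Among the class II chains, the probes of RT1-Bb disagreed, and probe 2 of RT1-Da and both probes of RT1-Ba were near background. RT1-Da probe 1 was at 8.71 in wild type 1, 7.12 in HIP 1, 7.53 in wild type 2 and 7.29 in HIP 2. Both HIP extracts lay below both of wild type, which was the case for 2 of 14 member probes (RT1-Da probe 1 and B2m probe 3) and for 15.2% of all probes. The ratios were -1.59 and -0.24, with a mean of -0.91 ± 0.95 and an interval of -2.81 to 0.99. RT1-Da probe 2 lay between 6.24 and 6.52 in the 4 extracts, at 1.62 to 2.03 times its local background, and its ratios were 0.060 and 0.054. It was too near background to be set against probe 1.

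RT1-Bb probe 1 was at 8.49 in wild type 1, 9.53 in HIP 1, 8.96 in wild type 2 and 9.17 in HIP 2. It was the 1 member probe of 14 on which both HIP extracts were above both of wild type (16% of all probes), with ratios of 1.04 and 0.21, a mean of 0.62 ± 0.58 and an interval of -0.92 to 2.17. With median centring its mean was 1.22 and it was the 1 member at least 2-fold higher in HIP on both arrays. Probe 2 of the same gene was at 9.90 in wild type 1, 6.97 in HIP 1, 7.32 in wild type 2 and 9.51 in HIP 2. It was high in 1 extract of each genotype and low in the other, and its ratios, -2.94 and 2.18, were the farthest apart among the members. Its mean was -0.38 ± 3.62.

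RT1-Ba, the partner of RT1-Bb, was near background. Its probe 1 lay between 6.05 and 6.73 and its probe 2 between 6.06 and 6.53 in the 4 extracts. Probe 1 was well above background in wild type 2 alone, and probe 2 in wild type 2 and HIP 1. Neither genotype was measured above background on both arrays, so differences between its extracts are not read as folds.

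Cd74 and Ciita had 1 probe each. Cd74 was at 8.66 in wild type 1, 7.14 in HIP 1, 7.92 in wild type 2 and 8.91 in HIP 2, with ratios of -1.52 and 0.98 and a mean of -0.27 ± 1.77. The order of the genotypes was turned between the arrays. Ciita was at 6.31 in wild type 1, 6.56 in HIP 1, 7.44 in wild type 2 and 9.88 in HIP 2. HIP 2 stood apart from the other 3, and HIP 1 lay below wild type 2, so the genotypes overlapped. The ratios were 0.26 and 2.44, with the highest mean among the members, 1.35 ± 1.54 (interval -1.26 to 3.96, limma adjusted p = 0.931). In the scanner's processed signals the Ciita spot gave 78.3 and 139 on array 1 and 287 and 3571 on array 2, wild type first. These were 1.76, 2.19, 2.48 and 29.8 times local background, so the 3 lower extracts were close to it. On array 2, the log2 ratio of HIP over wild type was 0.21 and 2.18 for RT1-Bb probes 1 and 2 and 0.98 for Cd74. It was -0.24 for RT1-Da probe 1 and 0.054 for RT1-Da probe 2, which was near background. The RT1-Ba probes were too near background to read. A link between Ciita and the levels of these class II genes was not tested.

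**Figure D3:**
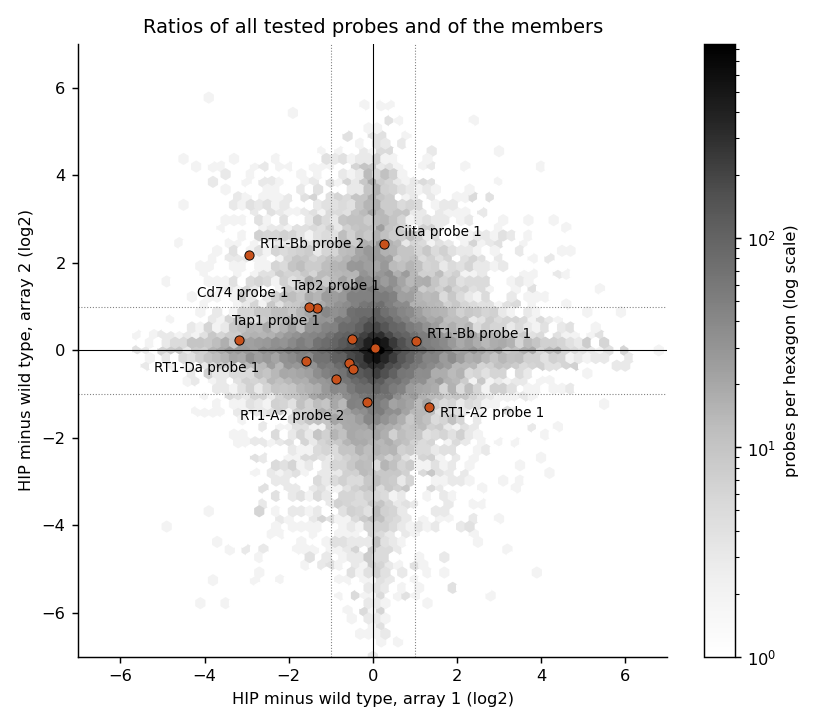
Log2 ratio of HIP over wild type on array 1 (horizontal) and array 2 (vertical) for all 33212 tested probes in grey, shaded by number on a log scale, and the 14 tested member probes in orange, the larger ones labelled. Dotted lines mark 2-fold, and no member lies past them in the same direction on both arrays.

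Differences between extracts of 1 genotype were as frequent as those between genotypes. The wild-type extracts were at least 2-fold apart on 8 of 14 member probes (30% of all probes) and the HIP extracts on 6 of 14 (30.2%). HIP and wild type were at least 2-fold apart on 7 of 14 on array 1 (30.5%) and on 4 of 14 on array 2 (28.1%). The extracts of 1 genotype were on different arrays, so their gap and the arrays cannot be told apart.

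The excess in wild type 2 seen for RT1-A2 also appeared on probes of related class I genes, a set looked at after the values were seen. Of 12 RT1-A and RT1-CE genes, RT1-A2 included, each taken by its brightest probe, 6 were highest in wild type 2 and at least 2-fold above wild type 1, against 10.5% of 29310 genes. RT1-A2 prompted the look and is 1 of the 6. The 6 were RT1-A2, RT1-A3, RT1-CE2, RT1-CE7, RT1-CE10 and RT1-CE16, with wild type 2 over wild type 1 gaps from 1.45 (RT1-A3) to 3.18 (RT1-CE7). The list of 27 class I molecules does not hold RT1-A2 but holds the other genes of this set, and 7 met the same rule (25.9%). Among them were RT1-A3, RT1-CE2, RT1-CE7, RT1-CE10 and RT1-CE16 again, so the list is not separate support. The median gap between wild type 2 and wild type 1 in that list was 0.17. The choice fixed HIP as lower on array 2 for the 6 named genes. On array 1 their ratios ran from -0.79 (RT1-CE16) to 1.34 (RT1-A2). RT1-CE1, RT1-CE3, RT1-CE4, RT1-CE6 and RT1-CE12 were lower in wild type 2 than in wild type 1, and RT1-CE5 was higher in both extracts of array 2. Class I genes are close in sequence and a probe can bind the transcripts of several, so these 12 are not independent measurements, and which transcript a probe measured was not tested.

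A class I gene that the array calls RT1-Aw2, a name the RefSeq table does not list, had 4 further probes. Had it been taken as an older symbol of RT1-A2, which these sources do not settle, that gene would have had 6 probes and the set 20. The probe printed on 10 spots was at 11.6 in wild type 1, 9.98 in HIP 1, 12.6 in wild type 2 and 12.06 in HIP 2. Its ratios were -1.64 and -0.57 (mean -1.10 ± 0.75, limma adjusted p = 0.931), from 8 spots on array 1 and 10 on array 2. The other 3 probes gave 0.12 and -1.58, 0.52 and -1.93, and -0.25 and 0.50, so each differed in sign between the arrays.

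Other genes of the route were taken from 5 lists that hold 102 genes, of which 67 were tested. Of these, 10 were higher in HIP on both arrays (27.1% of all genes), 16 were lower in HIP on both (23.1%) and 41 differed in sign (49.8%), and 0 passed limma's adjusted threshold. Of 27 class I molecules, 3 were higher on each array, 7 were lower on each and 17 differed in sign, with a median mean ratio of -0.13 beside 0.023 over all genes. Of 12 genes of peptide supply and loading for class I, such as immunoproteasome subunits and tapasin, 2 were higher, 3 were lower and 7 differed (median 0.044). Of 10 genes of class II molecules and loading, 2 were higher, 3 were lower and 5 differed (median -0.23). Of 14 regulators, among them Rfx5 and Irf1, 2 were higher, 3 were lower and 9 differed (median 0.033), and of 4 costimulatory genes 1 was higher and 3 differed (median -0.31).

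Of the 67 genes, 1 was at least 2-fold higher on both arrays (2.67% of all genes), 2 were at least 2-fold lower (2.48%), and 1 was 2-fold apart in opposite directions (5.58%). The last was Psme1, a subunit of the proteasome activator that was named after its values were seen, with ratios of -1.38 and 2.10. The lowest was RT1-N1, a nonclassical class I gene, at 8.95 in wild type 1, 6.55 in HIP 1, 10.3 in wild type 2 and 6.18 in HIP 2. Both HIP extracts lay below both of wild type, with ratios of -2.40 and -4.12 and a mean of -3.26 ± 1.22 (limma adjusted p = 0.931). The mean ran between -4.48 and -2.04 under the other normalizations, and was -3.79 with offset 16. Its HIP levels were close to the 95% point of the negative control spots (6.01 to 6.11), so the size of this ratio is not read as a fold. Ctsd, a lysosomal protease that degrades endocytosed protein, was at 8.0 and 10.6 on array 1 and at 8.29 and 10.9 on array 2, wild type first, a mean of 2.60 ± 0.04 (limma adjusted p = 0.931) with no overlap of the genotypes. Canx, a chaperone of new class I heavy chains, was at 8.35 and 6.92 on array 1 and at 7.60 and 6.52 on array 2. Its mean was -1.25 ± 0.25, with both HIP extracts below both of wild type. The mean was -2.16 with the scanner's processed ratio, and the level in HIP 2 was also low, so its size depends on the processing. RT1-N1, Ctsd and Canx were named for being at least 2-fold apart the same way on both arrays, a choice that favours agreement. Probe by probe, log2 ratios on array 1 were almost uncorrelated with those on array 2 (r = -0.0038). Both HIP extracts lay above both of wild type on 16% of all probes, and below on 15.2%. The tapasin gene Tapbp, the brightest of its list, gave -1.18 and 0.19, and turned sign with median centring (0.29, or 0.082 relative to the median of all probes). Rfxank, a subunit of the X box factor and the brightest regulator, gave -0.69 and -1.19. Its mean of -0.94 was -0.098 with median centring, or -0.30 relative to the median of all probes. Its other probes gave -2.58 and -0.19, and -0.82 and -0.92, so each was lower in HIP on both arrays after loess. They read the same extracts and are not independent measurements. RT1-M6-2 (-0.21), Marchf1 (-0.34) and Cd40 (-0.12), the brightest of the other lists, also turned sign with median centring, to 0.76, 0.50 and 0.59, or 0.56, 0.29 and 0.39 relative to that median. The other probe of RT1-M6-2 had a mean of 0.50 after loess and that of Cd40 a mean of 0.25, so the probes of these genes disagreed in sign.

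**Figure D4:**
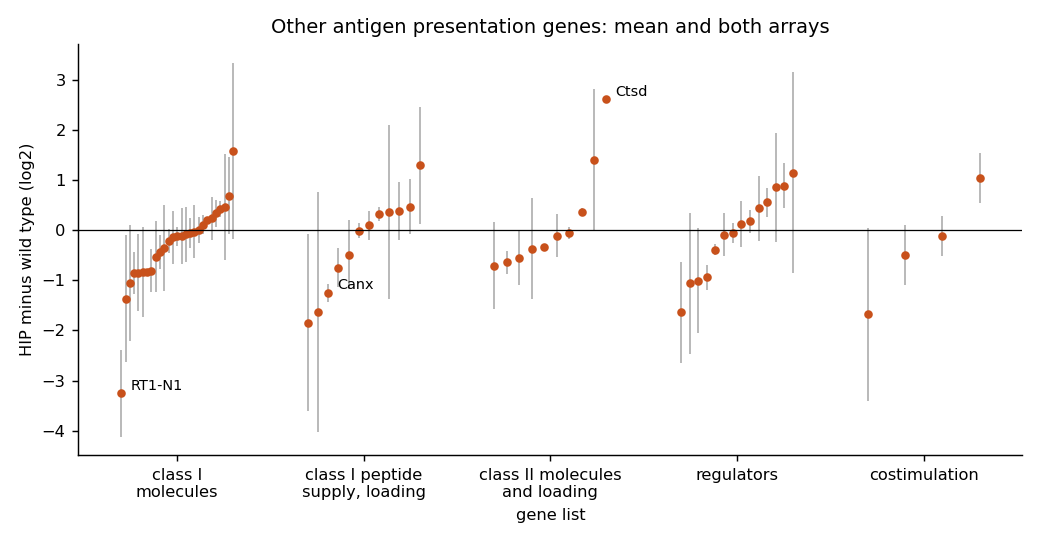
Mean log2 ratio of HIP over wild type (orange points) and the values of both arrays (ends of the grey lines) for the 67 tested genes of the 5 lists. Most lines are long against the means and cross 0, and the 3 labelled genes are those at least 2-fold apart in the same direction on both arrays.

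Summed marker signals of macrophages, dendritic cells, B cells and T cells, which could carry class II RNA, overlapped between the genotypes. The sums of pan-leukocyte genes were higher in both HIP extracts and those of islet and duct markers lower. A sum weights its brightest genes most. By gene, 4 of 10 tested islet markers were higher in HIP on both arrays and 3 were lower (median mean ratio 0.20). Of 6 tested duct markers 2 were higher and 2 lower, and of 4 pan-leukocyte genes 2 and 1. Over all genes the shares were 27.1% and 23.1%. The part of these cell types in the results was not tested. In bulk samples, fewer cells of a type and less RNA per cell cannot be told apart. The summed processed signal of 12 macrophage markers was 67760 and 87800 in the wild-type extracts and 60460 and 73100 in HIP. For 6 dendritic cell markers it was 13060 and 25720 against 20440 and 10030, for 5 B cell markers 4513 and 4724 against 5146 and 3657, and for 8 T cell markers 45670 and 36600 against 13540 and 65950. For 4 pan-leukocyte genes it was 103000 and 63880 against 216100 and 130300, and for 7 endothelial genes 11350 and 11110 against 18080 and 11130. Duct markers (8 genes) summed to 56800 and 26560 in wild type and to 14810 and 15490 in HIP. The 10 islet endocrine markers summed to 153800 and 240100 against 88410 and 117200, and the 10 acinar markers to 46380 and 56690 against 53270 and 97520. Of these markers, Iapp, Sst, Krt19, Krt7, Spp1, Mrc1, Cd83, Xcr1, Zbtb46, Cd2 and Pecam1 were not well above background in every extract.

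**Figure D5:**
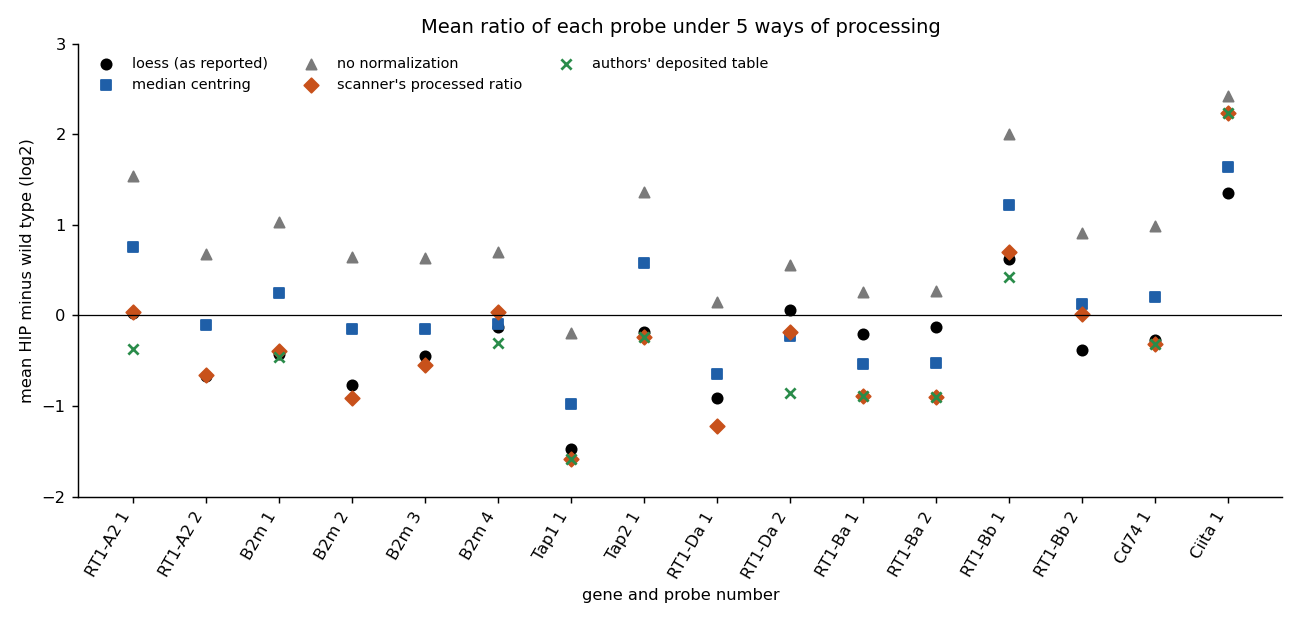
Mean log2 ratio of HIP over wild type (vertical axis) of each member probe under 5 ways of processing, which are loess as reported, median centring, no normalization, the scanner's processed ratio and the authors' deposited table. The means of Ciita and RT1-Bb probe 1 are above 0 in all 5, and that of Tap1 is below 0 in all 5. All 5 use the same 2 arrays. Tap1 was at 0.24 on array 2 after loess, and RT1-Bb probe 1 at -0.017 on array 1 in the authors' deposited table.

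The sign of 5 of the 16 member means turned with median centring, of 3 with the scanner's processed ratio and of 11 without normalization, which moved all probes. The median log2 ratio of all tested probes was 0.036 and 0.020 on arrays 1 and 2 after loess, 0.16 and 0.24 with median centring over all spots, and 0.79 and 1.20 without normalization. Relative to the median of all probes, the means with median centring were 0.55 for RT1-A2 probe 1, -0.31 for RT1-A2 probe 2, 0.043, -0.35, -0.36 and -0.30 for B2m probes 1 to 4, -1.19 for Tap1, 0.37 for Tap2, -0.85 for RT1-Da probe 1, 1.01 and -0.081 for RT1-Bb probes 1 and 2, -0.0036 for Cd74 and 1.43 for Ciita. In the authors' deposited table, 11 of the 16 probes had an entry, and 6 of these equalled the scanner's ratio within 0.001. Ciita was 0.83 and 3.64 on arrays 1 and 2 in the authors' deposited table, and Tap1 was -3.45 and 0.28. RT1-Bb probe 1 was -0.017 and 0.87 in the authors' deposited table, against 1.28 and 0.13 from the scanner.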

How the data were processed

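Amplified cDNA of 4 extracts was hybridised to 2 two-colour Agilent rat arrays. Per the file headers, the authors' scans were read in Feature Extraction (Agilent, 9.5.1.1). The deposited intensities are spot means and local background medians as scanned, and processed intensities that were background-subtracted, detrended and dye-normalized, per the file headers. The deposited log10 ratio is processed Cy5 (HIP) over Cy3 (wild type), per the file headers. mRNA-derived cDNA was amplified by a global PCR method, per the labels' protocols, and its effect on proportions was not measured. The sources used here name no genome build for the probes.

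In R 4.3.3 with limma 3.58.1, intensities were corrected with normexp (offset 50) and normalized by loess within each array, with control spots at weight 0. Outlier spots were left out and spots of a probe averaged. A probe was kept if 1 dye was well above background on both arrays (33229 of 41012 probes), and 33212 had both ratios. Levels were scaled between arrays with Aquantile. The fit used lmFit and eBayes against 0, two-sided (prior degrees of freedom 1.68, prior SD 0.675). Its code was run on simulated data, where recovery was required only at a spread smaller than that of these arrays. That run does not show what the fit can find here. With 2 arrays, their number limits the precision. For each list gene the probe with the highest mean signal was used. Gene names come from the array and a RefSeq table (GRCr8, for names alone), through an accession for 10735 probes, a symbol for 5512 and a synonym for 3719, and the array's name was kept for 21046. Every probe of the 9 genes is named, and of the lists each gene 2-fold apart the same way on both arrays and the brightest gene of each. The RT1-A and RT1-CE genes and RT1-Aw2 were added after their values were seen. Members and lists were chosen with earlier results of these data known. Alternatives were median centring, no normalization, the scanner's ratios, offset 16, other filters, other priors, separate channels and leaving out each array.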

Additional observations from a re-analysis of the deposited data

How the results depend on the processing

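The count of gene probes past limma's adjusted threshold was 0 in the fit as reported (1105 at an unadjusted 0.05) and 0 in the 11 alternatives with a test, which had 960 to 5619 at an unadjusted 0.05. A single array leaves no residual degrees of freedom, so leaving out an array gives values with no test. The count of member probes at least 2-fold higher on both arrays was 1 with median centring and 1 without normalization, RT1-Bb probe 1 in both. On 1 array alone, 2 and 2 members were 2-fold higher, and 2 and 5 were 2-fold lower. List genes with 1 sign on both arrays were 41 with median centring and 53 without normalization, of 67. With offset 16 and with outlier spots kept, all 16 member means had the sign reported.

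With median centring, signs turned for B2m probe 1 (0.25), Tap2 (0.58), RT1-Da probe 2 (-0.23), RT1-Bb probe 2 (0.12) and Cd74 (0.20), the last pair being -0.081 and -0.0036 relative to the median of all probes. Without normalization, which shifts all probes upward (medians 0.79 and 1.20), so that a turned sign says nothing of the gene, they turned for RT1-A2 probe 2 (0.68), B2m probes 1 to 4 (1.04, 0.64, 0.64 and 0.70), Tap2 (1.37), RT1-Da probe 1 (0.14), RT1-Ba probes 1 and 2 (0.26 and 0.27), RT1-Bb probe 2 (0.91) and Cd74 (0.99). With the scanner's processed ratio they turned for B2m probe 4 (0.033), RT1-Da probe 2 (-0.18) and RT1-Bb probe 2 (0.013). In the authors' deposited table they turned for RT1-A2 probe 1 (-0.37) and RT1-Da probe 2 (-0.85), and as the mean over its probes RT1-A2 was -0.32. The cause was not tested. On single arrays the ranges were -1.28 to 1.34 for RT1-A2 probe 1, -0.50 to 0.26 for B2m probe 4, -3.18 to 0.24 for Tap1, -1.33 to 0.96 for Tap2, -0.47 to 0.068 and -0.46 to 0.20 for RT1-Ba probes 1 and 2 (near background, not read as folds or turns), -2.94 to 2.18 for RT1-Bb probe 2 and -1.52 to 0.98 for Cd74. The ratio tested pairs the extracts of an array, and the fit of 4 separate dye channels with the array as replicate block also called 0 probes (1441 at an unadjusted 0.05).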
